A study of Mus musculus with 6 samples.

Results

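The genes that build replication origins and copy DNA at the fork were compared between Notch1f/f and Notch1+/+ thymic lymphomas of Ikaros-deficient mice. The set held 44 genes, from the origin recognition complex to the polymerases, chosen by name and read through every probe set whose platform symbol was exactly one of them. All 44 had such a probe set, 96 in all among the 45101 of the array. All 44 also had a probe set above a filter on dim signal, as did 12043 genes of the array in total. Where a gene had several, the probe set with the highest mean over the 6 arrays stood for it.

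Each array measured the RNA of 1 primary thymic tumour. All 6 mice were IkL/L, meaning both copies of Ikzf1, which encodes Ikaros, a zinc finger regulator of lymphocyte development, were hypomorphic, and all carried CD4-Cre, a recombinase under Cd4 control that acts from the thymocyte stage on. The 3 Notch1+/+ mice were 18 to 20 weeks old. The 3 Notch1f/f mice were 8 to 10 weeks old, had both alleles floxed, and gave tumours labelled as lacking the Notch promoter and exon 1. Genotype and age changed together and cannot be told apart, and no normal thymus was among the samples. The tumour cells were taken after mechanical disruption of the tissue with no sorting step in the protocol. Notch1 itself was not lower in the tumours labelled Notch1f/f. Its 2 probe sets read 567.9 to 1792.5 and 2532 to 3636.5 in the Notch1+/+ tumours and 1346 to 2211.5 and 3043 to 3419 in the Notch1f/f tumours. Where these probes lie relative to the deleted sequence is not given in the sources used here, so they do not check the deletion.

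Replication origins are licensed in G1, when the origin recognition complex, Cdc6 and Cdt1 load the ring-shaped MCM2-7 helicase onto DNA. In S phase, the Cdc7-Dbf4 kinase and further factors join Cdc45 and GINS to the ring, and the active helicase opens the fork for primase and the polymerases, with the sliding clamp holding the polymerases on the template. Many of these genes are transcribed under E2F control as cells enter the cycle, and developing thymocytes pass through bursts of division in which they are abundant.

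Nearly all replication genes had lower mean values in the Notch1f/f tumours, by moderate amounts. Of the 44 genes, 43 had a log2 difference below 0 against 51.6% of all 12043 genes, and Uhrf1 was the exception. The median log2 difference was -0.44, a 1.36-fold lower value, against -0.01 over all genes. The lowest was -1.14 in Cdc6, and 18 genes lay below -0.5. Differences were taken on log2(intensity + 16), where the added 16 makes those of dim genes smaller than they are. No gene of the set passed an adjusted p of 0.05 in limma over all probe sets, the smallest being 0.202, and 0.0415% of all genes did. At an unadjusted limma p under 0.05, 16 of the 44 were lower and 0 higher, where 6.21% of all genes were lower and 6.97% higher. All 3 Notch1f/f tumours lay under all 3 Notch1+/+ tumours in 21 of the 44, and 0 showed the opposite, where 9.14% of all genes lay fully lower and 9.21% fully higher. A single gene cannot go below an exact two-sided permutation p of 0.1 with 3 tumours against 3.

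These counts depended on single tumours, and the shares over all genes also moved. Leaving out Notch1f/f tumour 1 turned the 16 into 7, with 3.04% of all genes lower at that p, and leaving out Notch1f/f tumour 3 turned it into 9, with 4.09%. It became 10 when Notch1+/+ tumour 2 was omitted (3.48% of all genes) or Notch1+/+ tumour 3 (4.71%). Omitting Notch1f/f tumour 2 raised it to 25, with 9.69% of all genes. The 21 became 35 when Notch1f/f tumour 2 was omitted, where 19.4% of all genes lay fully lower, and 32 when Notch1+/+ tumour 1 was, where 17.0% did. With 1 tumour fewer, groups part more readily, so these shares replace the 9.14% of the full comparison. In bulk tumours, fewer dividing cells and less RNA per dividing cell cannot be told apart.

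**Figure D1:**
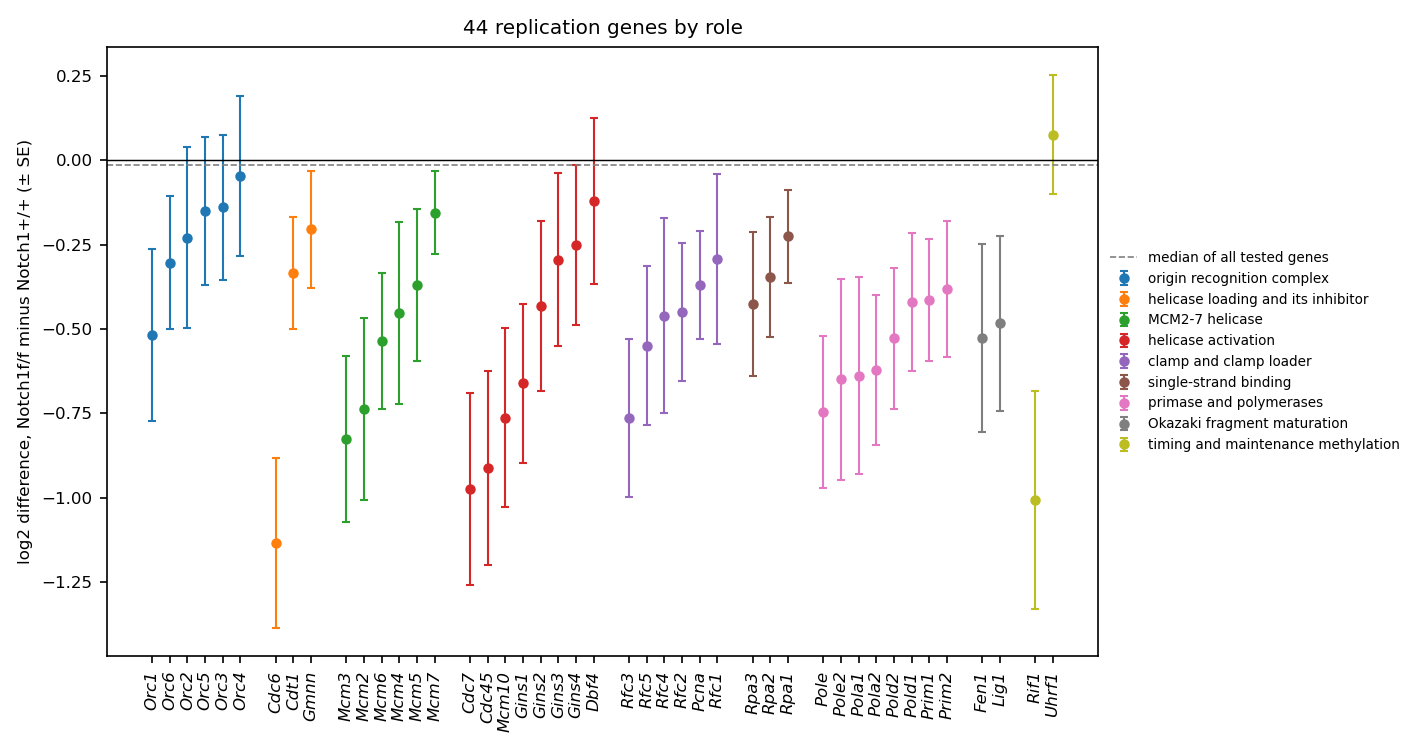
Log2 difference (Notch1f/f minus Notch1+/+, 3 tumours each) of the 44 replication genes, grouped by role and ordered by size within each role; points are limma estimates, bars are SE, and the dashed line is the median of all 12043 tested genes. Of the 44 points, 43 lie below 0, from -1.14 for Cdc6 to -0.05 for Orc4, and Uhrf1 lies at 0.08.

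The promoters of 4 genes are shown because these genes had the smallest p-values among those with a match to an E2F motif. The sequences are from RefSeq (GRCm38.p6), run from 250 bases before to 50 bases after the annotated start, and are written 5′ to 3′ on the gene's strand with the motif matches in capitals. Cdc6 lies on the plus strand at chr11:98907901-98908200, Mcm3 on the minus strand at chr1:20820263-20820562, Rfc3 on the minus strand at chr5:151651159-151651458 and Mcm6 on the minus strand at chr1:128359656-128359955.
Cdc6: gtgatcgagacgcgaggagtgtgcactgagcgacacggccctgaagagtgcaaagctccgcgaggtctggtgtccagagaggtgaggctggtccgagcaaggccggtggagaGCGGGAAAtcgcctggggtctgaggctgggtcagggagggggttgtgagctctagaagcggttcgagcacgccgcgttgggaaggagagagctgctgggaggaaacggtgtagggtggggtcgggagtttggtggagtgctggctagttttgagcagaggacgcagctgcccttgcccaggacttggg
Mcm3: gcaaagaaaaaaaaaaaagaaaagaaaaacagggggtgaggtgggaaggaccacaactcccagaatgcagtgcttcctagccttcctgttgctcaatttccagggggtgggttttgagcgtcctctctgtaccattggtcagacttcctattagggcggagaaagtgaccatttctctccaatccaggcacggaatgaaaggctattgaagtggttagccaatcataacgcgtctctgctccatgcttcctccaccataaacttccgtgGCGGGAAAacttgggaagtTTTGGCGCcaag
Rfc3: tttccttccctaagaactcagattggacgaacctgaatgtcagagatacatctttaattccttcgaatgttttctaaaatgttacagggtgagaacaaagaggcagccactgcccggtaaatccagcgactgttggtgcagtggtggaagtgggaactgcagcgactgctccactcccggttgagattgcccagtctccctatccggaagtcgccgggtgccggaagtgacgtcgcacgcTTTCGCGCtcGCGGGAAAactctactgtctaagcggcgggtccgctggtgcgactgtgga
Mcm6: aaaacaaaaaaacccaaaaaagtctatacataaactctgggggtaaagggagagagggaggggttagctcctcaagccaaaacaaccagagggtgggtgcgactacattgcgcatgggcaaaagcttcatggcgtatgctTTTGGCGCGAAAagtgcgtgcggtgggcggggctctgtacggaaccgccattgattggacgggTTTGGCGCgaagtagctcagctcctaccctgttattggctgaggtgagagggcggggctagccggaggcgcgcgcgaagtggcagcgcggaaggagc

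The letters searched, on both strands, were TTTCCCGC, TTTGGCGC, TTTCGCGC and TTTGCCGC. Cdc6 has 1 match, Mcm3 and Rfc3 have 2 each, and Mcm6 has 3, of which 2 overlap in the first run of capitals. Of the 44 genes, 35 had a promoter in the RefSeq table, and 15 of these 35 held a match in at least 1 promoter. Counted by promoter, 15 of 45 (33.3%) held one, against 744 of 32851 (2.26%) promoters of the same length over all genes. The 15 genes with a match had a median log2 difference of -0.48 and the 20 without one -0.42, so the lower values were not limited to promoters with these letters. A match describes the letters and is not a measured binding site.

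Of the 9 roles, the origin recognition complex had the median nearest to 0. All 6 of its genes, whose products mark origins, were below 0, with a median log2 difference of -0.19, no p under 0.05 and overlapping groups in each. Orc1, the subunit whose level follows the cell cycle, differed most. Its intensities were 161, 112 and 155 in Notch1+/+ tumours 1, 2 and 3 and 87.3, 118.5 and 79.0 in Notch1f/f tumours 1, 2 and 3. Notch1f/f tumour 2 lay above the lowest Notch1+/+ tumour, and the log2 difference was -0.52 ± 0.25 (SE; limma adjusted p = 0.402). Orc2 to Orc6 had log2 differences from -0.30 (Orc6) to -0.05 (Orc4). The sign of Orc4 turned when Notch1+/+ tumour 3 was omitted (0.05), when Notch1f/f tumour 3 was (0.13), and in the average of its probe sets (0.23).

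The genes that load the helicase included the one with the largest difference. Cdc6, the ATPase that joins the origin complex to load MCM2-7, had 708, 665 and 597 in the Notch1+/+ tumours and 241, 424.5 and 236 in the Notch1f/f tumours. No Notch1f/f tumour reached the lowest Notch1+/+ tumour, and tumours 1 and 3 of the Notch1f/f group were lower than tumour 2. The mean was 301 ± 107 (SD, n = 3) against 657 ± 55.9, a 2.20-fold difference with a log2 difference of -1.14 ± 0.25 and a limma adjusted p of 0.202. Over the 16 alternative settings, the log2 difference of Cdc6 ranged from -1.40 to -0.997 and its adjusted p from 0.0627 to 0.555. Cdt1, its partner in loading, had 1586 ± 187 against 2003 ± 220 with groups that did not overlap. Gmnn, which encodes geminin, the inhibitor of Cdt1, had 869 ± 120 against 998 ± 24.8, with Notch1f/f tumour 2 inside the Notch1+/+ range. Their log2 differences were -0.33 ± 0.17 and -0.20 ± 0.17 (limma adjusted p = 0.403 and 0.616). A second, dimmer Cdt1 probe set overlapped, at 478.5 ± 113 against 619 ± 158 (log2 difference -0.35 ± 0.26, limma adjusted p = 0.563).

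All 6 subunits of the MCM2-7 ring were below 0, from -0.83 to -0.16. Mcm3 had 1962, 1822 and 1824 in the Notch1+/+ tumours and 813, 1594 and 883 in the Notch1f/f tumours. The 3 wild-type tumours were close together, and Notch1f/f tumour 2 lay much nearer to them than tumours 1 and 3 did. Its log2 difference was -0.83 ± 0.25 (limma adjusted p = 0.286). Mcm2 had 1152, 1189.7 and 1375 against 622, 1156 and 551, where Notch1f/f tumour 2 fell inside the Notch1+/+ range, and a log2 difference of -0.74 ± 0.27 (limma adjusted p = 0.310). Mcm6 had 3288, 3080.5 and 3302 against 1828, 3062 and 1951.5, so that the groups were parted by the narrow gap between 3062 and 3080.5. Its log2 difference was -0.53 ± 0.20 (limma adjusted p = 0.316). A second, dimmer Mcm6 probe set overlapped, with Notch1f/f tumour 2 at 1205.1 inside the Notch1+/+ range of 1200.6 to 1252.3. Mcm4 and Mcm5 had log2 differences of -0.45 ± 0.27 and -0.37 ± 0.22 with overlapping groups, and in both Notch1f/f tumour 2 was within the Notch1+/+ range. Mcm7 differed least, at 3627 ± 147 against 4038 ± 9.98, although its groups did not overlap (log2 difference -0.16 ± 0.12, limma adjusted p = 0.591). These subunits form 1 ring, but intensities of different probe sets are not comparable with each other, so their proportions cannot be read from the arrays.

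**Figure D2:**
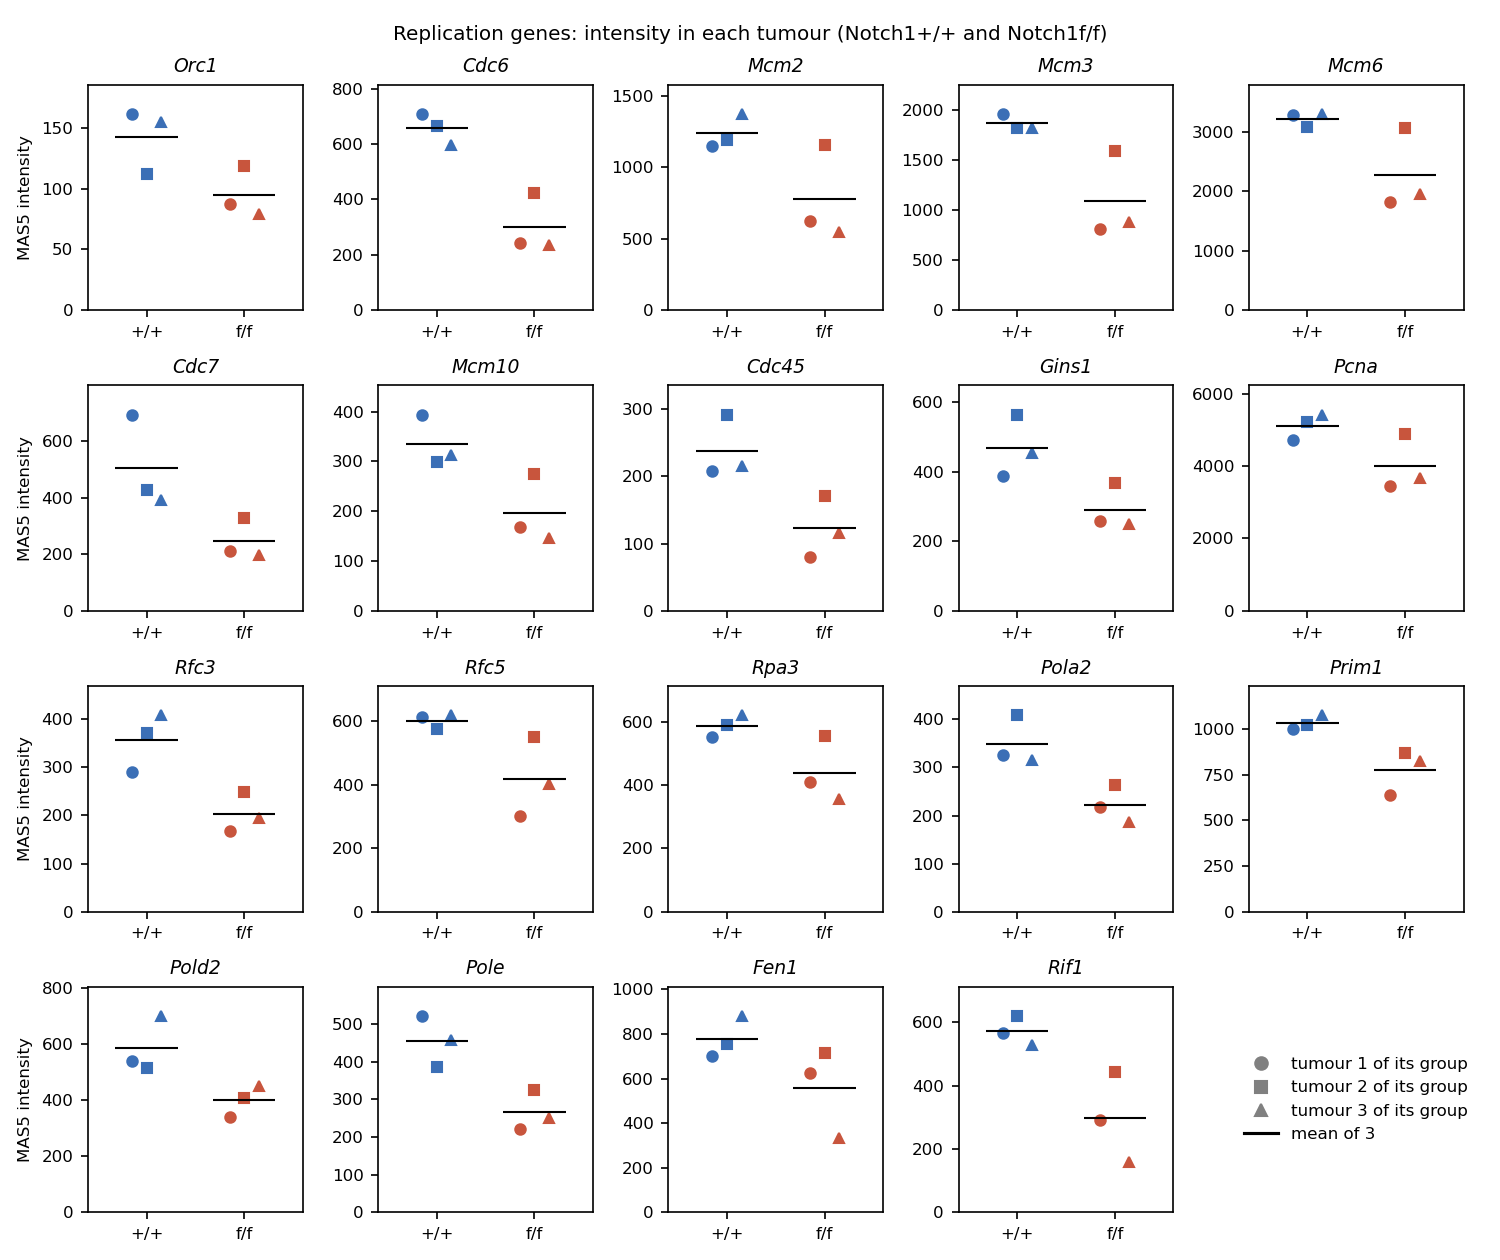
MAS5 intensity (linear axis from 0) of 19 replication genes in each Notch1+/+ (blue) and Notch1f/f (red) tumour, with the mean of 3 as a line; the symbol shape gives the tumour's number within its group, and numbers do not pair tumours. In Cdc6, the Notch1f/f tumours sit between 236 and 424.5, under the 597 to 708 of the Notch1+/+ tumours, and the square, Notch1f/f tumour 2, is the highest of its group in most panels.

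Among the factors that turn the loaded ring into a moving helicase, the kinase subunit Cdc7 had the largest difference and its partner Dbf4 the one nearest to 0. Cdc7, the catalytic subunit that phosphorylates MCM2-7, had 693, 426 and 391 in the Notch1+/+ tumours and 213, 328 and 197.5 in the Notch1f/f tumours. The groups did not overlap, although Notch1+/+ tumour 1 was far above the other two of its group. The log2 difference was -0.97 ± 0.28 (limma adjusted p = 0.280), a 1.96-fold difference. Dbf4, the subunit that activates Cdc7, had 830 ± 59.5 against 939 ± 339, a log2 difference of -0.12 ± 0.25 that was 0.15 without Notch1+/+ tumour 1. Whether the 2 subunits differed from each other was not tested.

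Cdc45 and GINS complete the active helicase with MCM2-7, and Mcm10 helps to start it. Cdc45 had 208, 292 and 215 against 80.7, 171 and 116, with no overlap and a log2 difference of -0.91 ± 0.29 (limma adjusted p = 0.291). Mcm10 had 394, 299 and 312 against 169, 274 and 146, also without overlap, and a log2 difference of -0.76 ± 0.27 (limma adjusted p = 0.299). Of the GINS subunits, Gins1 had 387, 564 and 455 against 258, 367 and 249.5, and a log2 difference of -0.66 ± 0.24 (limma adjusted p = 0.304). In all of these, Notch1f/f tumour 2 was the nearest to the Notch1+/+ tumours. Gins2, Gins3 and Gins4 had log2 differences of -0.43, -0.29 and -0.25, with overlapping groups in each. A second Gins3 probe set, similar in brightness, did not overlap, at 46.6 ± 15.3 against 83.8 ± 12.6. Its log2 difference was -0.69 ± 0.26 (limma adjusted p = 0.320). Dimmer probe sets of Cdc45, Gins1 and Mcm10 overlapped, with log2 differences of -0.28, -0.17 and -0.03, while a further Mcm10 one did not.

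The sliding clamp and its loader were lower in mean value throughout, by a median log2 difference of -0.45 over 6 genes. Pcna, the clamp, had 4715, 5205 and 5419 in the Notch1+/+ tumours and 3442, 4875 and 3663 in the Notch1f/f tumours. Notch1f/f tumour 2 lay inside the Notch1+/+ range while tumours 1 and 3 lay under it, and the log2 difference was -0.37 ± 0.16 (limma adjusted p = 0.359). Of the loader subunits, Rfc3 had 291, 370.2 and 408 against 168, 249 and 194, with no overlap and a log2 difference of -0.76 ± 0.23 (limma adjusted p = 0.290). Rfc5 had 614, 575 and 619 against 301.5, 549.6 and 403, also without overlap (log2 difference -0.55 ± 0.24, limma adjusted p = 0.356). Rfc2 likewise did not overlap, at 298 ± 50.4 against 409 ± 8.27. Rfc4 and Rfc1, the large subunit, overlapped in the probe sets used, with log2 differences of -0.46 and -0.29. Further, dimmer Rfc1 probe sets did not overlap, with log2 differences of -0.61 ± 0.23 and -0.86 ± 0.30 (limma adjusted p = 0.320 and 0.297).

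The 3 subunits of RPA, which coats the single strands opened at the fork, had log2 differences from -0.43 to -0.23 in the probe sets used. Rpa3 had 551, 590.0 and 620.1 against 409.5, 554 and 355.5, and Notch1f/f tumour 2 at 554 lay just above the lowest Notch1+/+ tumour at 551 (log2 difference -0.43 ± 0.21, limma adjusted p = 0.408). Rpa1 and Rpa2 did not overlap, at 2111 ± 124 against 2469 ± 92.0 and 449 ± 16.5 against 575 ± 43.6. A second, dimmer Rpa2 probe set had a larger difference but overlapped, at 225 ± 77.8 against 395 ± 109. Its log2 difference was -0.78 ± 0.30 (limma adjusted p = 0.319). A second, dimmer Rpa1 probe set also overlapped, with a log2 difference of -0.20 ± 0.17.

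Primase and the replicative polymerases were the role in which the tumour groups were most often separate in the probe sets used. Here 6 of 8 genes lay fully lower, as did 9.14% of all genes, and the median log2 difference was -0.57. Pole, the catalytic subunit of polymerase epsilon, which copies the leading strand, had 520.3, 386 and 458 in the Notch1+/+ tumours and 221.5, 326 and 251 in the Notch1f/f tumours. The log2 difference was -0.75 ± 0.22 (limma adjusted p = 0.287). Pola2, the accessory subunit of polymerase alpha, had 326, 408 and 315 against 217, 264.5 and 186 (log2 difference -0.62 ± 0.22, limma adjusted p = 0.304). In both, every Notch1f/f tumour was under every Notch1+/+ tumour. Pold2, a subunit of the lagging-strand polymerase delta, had 541, 516 and 699.8 against 340.5, 409.8 and 450.1 (log2 difference -0.53 ± 0.21, limma adjusted p = 0.333). Prim1, the catalytic primase subunit that lays the RNA primers, had 998, 1020.1 and 1074 against 640.3, 865.5 and 822 (log2 difference -0.41 ± 0.18, limma adjusted p = 0.364). Here Notch1f/f tumours 2 and 3 were close together and tumour 1 was lower. Prim2 and Pold1 also had no overlap, with log2 differences of -0.38 and -0.42. Further, dimmer probe sets of Prim1, Pold1 and Pola2 overlapped, with log2 differences of -0.16, -0.45 and -0.12, while those of Prim2 did not. Pola1 and Pole2 overlapped through Notch1f/f tumour 2, with log2 differences of -0.64 ± 0.29 and -0.65 ± 0.30.

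The enzymes that finish Okazaki fragments showed overlapping groups. Fen1, the flap endonuclease that removes primer ends, had 699.8, 757 and 879 against 626, 716 and 336 (log2 difference -0.53 ± 0.28, limma adjusted p = 0.426). In this probe set, Notch1f/f tumour 3 alone was far below the rest. A second Fen1 probe set had 543, 753 and 866 against 444, 642 and 418. There, Notch1f/f tumours 1 and 3 both lay under every Notch1+/+ tumour (log2 difference -0.51 ± 0.25, limma adjusted p = 0.393). Lig1, the ligase that seals the fragments, had 786 ± 180.5 against 1113 ± 295 (log2 difference -0.48 ± 0.26, limma adjusted p = 0.435).

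Rif1 and Uhrf1, which act on chromatin around replication, lay on opposite sides of 0 in the probe sets used. Rif1, a regulator of replication timing that restrains origin firing, had 566, 619.5 and 529 in the Notch1+/+ tumours and 293, 442 and 159.7 in the Notch1f/f tumours. The groups did not overlap, and Notch1f/f tumour 3 was the lowest of all. The log2 difference was -1.01 ± 0.32 (limma adjusted p = 0.293), a 2.01-fold difference. Uhrf1, the only gene of the set above 0 and below it with array weights, with its probe sets averaged or when Notch1f/f tumour 2 was omitted, brings the maintenance DNA methyltransferase to newly copied DNA. It had 1288, 1679.9 and 1277 against 1372, 1675 and 1413, fully overlapping, with a log2 difference of 0.08 ± 0.18 (limma adjusted p = 0.869).

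Further probe sets of the same genes mostly pointed the same way. Of the 96 probe sets, 92 passed the filter, and the 4 that did not belonged to Cdt1, Mcm6, Pola1 and Pola2, each with a brighter one. Of the 92, 88 had a log2 difference below 0, against 55.0% of the 27022 tested on the array. At an unadjusted limma p under 0.05, 31 were lower and 1 higher, where 7.60% of all probe sets were lower and 5.94% higher. Of the 92, 41 lay fully lower and 2 fully higher, where 2821 and 2198 of the 27022 did. Cdt1, Mcm3, Mcm6, Mcm7, Mcm10, Cdc45, Gins1, Rpa1, Rpa2, Pola2, Prim1 and Pold1 were separate in the probe set used but not in another. Orc3, Mcm2, Dbf4, Gins3 and Rfc1 overlapped in theirs but lay fully lower in another. Probe sets of 1 gene share its RNA and are not separate evidence. All 4 Rif1 probe sets were lower without overlap, with log2 differences of -1.01, -0.82, -0.96 and -2.24. The last of these, with 18.8 ± 8.80 against 146 ± 29.8, had the smallest limma adjusted p of the 92, at 0.0693. The 5 Mcm3 probe sets ranged from -1.48 to -0.23, where the value nearest 0 came from a dim one at 24.2 ± 11.2 against 30.0 ± 0.896. The second Cdc7 probe set gave -1.26 ± 0.31, at 41.1 ± 22 against 114 ± 10.8. Of the 32 genes with several tested probe sets, 29 had all of them below 0, and the exceptions were Orc4, Uhrf1 and Pole2. Orc4 ran from -0.15 to 0.72. Its highest was the 1 probe set past an unadjusted limma p of 0.05 on the higher side, at 39.4 ± 14.3 against 17.0 ± 3.2. Both this one and another Orc4 probe set, at 163 ± 32.5 against 121 ± 24.1 (log2 difference 0.39 ± 0.25), lay fully higher. Uhrf1 had a second, dimmer probe set at -0.53 ± 0.32 (limma adjusted p = 0.486). For 7 genes (Mcm3, Mcm5, Mcm7, Gins2, Pold1, Fen1 and Rif1) the probe set used has the suffix _s or _x, which marks sets that may also detect transcripts of other genes.

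**Figure D3:**
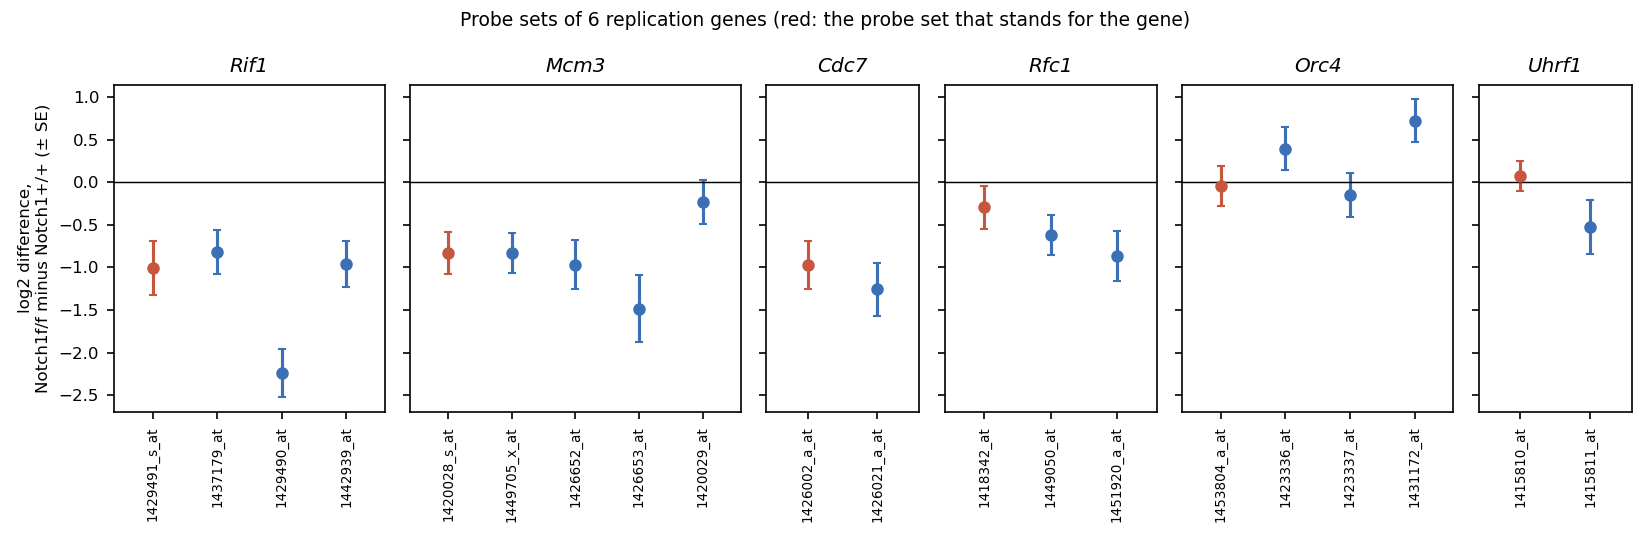
Log2 difference (Notch1f/f minus Notch1+/+) with SE for each tested probe set of 6 replication genes, ordered by intensity in the Notch1+/+ tumours, with the one that stands for the gene in red. All 4 Rif1 probe sets lie below 0, at -0.82 to -2.24, while those of Orc4 lie on both sides, from -0.15 to 0.72.

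The Notch1f/f tumours differed among themselves along the whole set. The median deviation from the Notch1+/+ mean over the 44 genes was -0.66, -0.17 and -0.52 in Notch1f/f tumours 1, 2 and 3. It was between -0.09 and 0.04 in the Notch1+/+ tumours, which lie around 0 by construction because their own mean is the reference. Tumour 1 lay under all Notch1+/+ tumours in 37 genes, tumour 3 in 40 and tumour 2 in 22, where the shares over all genes were 31.9%, 31.1% and 21.6%. Tumour 2 was the highest of the 3 in 36 of the 44 genes and the lowest in 0. The matching shares over all genes were not computed. The spread within the Notch1f/f group exceeded that within the Notch1+/+ group in 33 of the 44 genes, against 50.9% of all genes. Its median SD was 0.28 on the log2 scale against 0.19 in the Notch1+/+ group. Over all genes, the median SD was 0.26 in the Notch1f/f and 0.25 in the Notch1+/+ group. The set thus lay near all genes in the Notch1f/f group and under them in the Notch1+/+ group. This comparison was not matched for brightness. Of the 44 genes, 43 had a mean intensity over 100, while 23.1% to 25.0% of all probe sets read over 100 on each array.

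The Notch1f/f tumours also varied by role. For MCM2-7, the median deviation was -0.84 in Notch1f/f tumour 1, -0.08 in tumour 2 and -0.69 in tumour 3. For primase and the polymerases it was -0.71, -0.33 and -0.58, so that tumour 2 was further from the wild-type tumours here than for the helicase ring. For the origin recognition complex it was -0.14, -0.08 and -0.40, with tumour 3 the lowest in 5 of 6 genes. These are single tumours, and differences between roles were not tested.

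**Figure D4:**
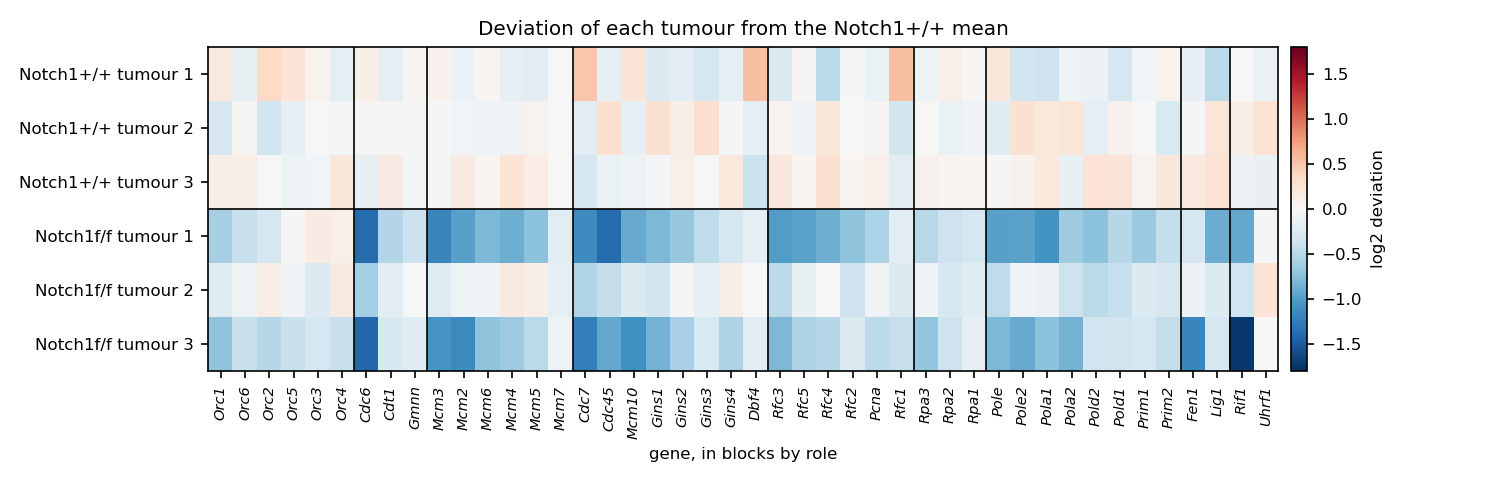
Deviation of each tumour (row) from the mean of the 3 Notch1+/+ tumours, on the log2(intensity + 16) scale, for the 44 replication genes (columns, in blocks by role); blue is lower and red higher. Notch1f/f tumours 1 and 3 are blue across most columns, with medians of -0.66 and -0.52, while tumour 2 is pale, with a median of -0.17.

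Other genes of replication, listed by function, also had medians below 0. For the counts that follow, the shares over all genes were 51.6% below 0, and 6.21% lower and 6.97% higher at an unadjusted limma p under 0.05. Of 25 partners of the fork and of firing, 20 were below 0, 9 were lower and 0 higher at that p. Their median log2 difference was -0.38. Wdhd1, which ties polymerase alpha to the helicase, had 229 ± 122 against 569 ± 98.3 (log2 difference -1.35 ± 0.33, limma adjusted p = 0.222). The next by p were Mcmbp, an MCM-binding protein, at -0.58, Dscc1, of the alternative clamp loader, at -0.79, and the nuclease-helicase Dna2 at -0.82. Of 8 genes of chromatin assembly behind the fork, 6 were below 0 with a median of -0.33, 2 were lower and 1 higher at that p. The histone chaperone Nasp had -0.76 ± 0.25, and Supt16, a subunit of the FACT chaperone, was the higher one at 0.56 ± 0.17 (limma adjusted p = 0.295 and 0.283). All 9 replication checkpoint genes were below 0 with a median of -0.42, 0 at that p, and the smallest p-values belonged to Hus1, Chek1, Atr and Rad1. None of these genes passed an adjusted p of 0.05 in limma.

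The E2F factors and the pocket proteins that hold them in check lay on both sides of 0. Of 13, 9 were below 0, with a median of -0.13, and 2 were lower and 1 higher at an unadjusted limma p under 0.05. Among all genes, 51.6% were below 0, and 6.21% were lower and 6.97% higher at that p. E2f1, an activator of replication genes, had 138 ± 41.5 against 218 ± 42.0, and E2f3 156 ± 58.9 against 237 ± 15. Rbl1, the pocket protein p107, had 321 ± 202 against 616 ± 78.0, and Rbl2, its relative p130, which is high in resting cells, had 308 ± 59.5 against 206.5 ± 12.3. Their log2 differences were -0.63, -0.61, -1.09 and 0.53 (limma adjusted p = 0.358, 0.370, 0.315 and 0.348).

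Mitotic genes had a median log2 difference of -0.41, close in value to that of the replication genes. Of 19 measured, 18 were below 0, against 51.6% of all genes. At an unadjusted limma p under 0.05, 6 were lower and 0 higher, where 6.21% of all genes were lower and 6.97% higher. The smallest p-values belonged to Kif11, Aurkb, Top2a and Cenpe, at -0.74, -0.65, -0.70 and -0.70. Mki67, the gene of the Ki-67 antigen of cycling cells, had 2171 ± 301 against 2446 ± 317 (log2 difference -0.17 ± 0.17, limma adjusted p = 0.672). The median deviation of the mitotic genes was -0.49, -0.23 and -0.42 in Notch1f/f tumours 1, 2 and 3. It ranged from -0.17 to 0.19 in the Notch1+/+ tumours, whose own mean is the reference. Whether the replication genes differed more than the mitotic ones was not tested.

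**Figure D5:**
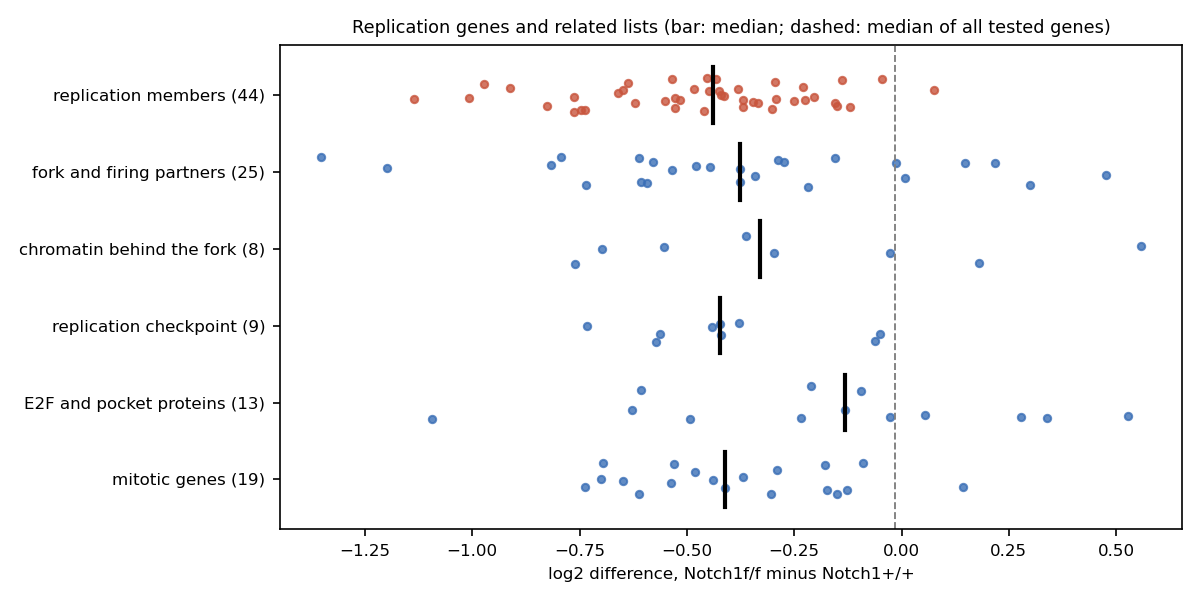
Log2 difference (Notch1f/f minus Notch1+/+) of each gene (point) in the replication set and in 5 related lists, with the number of genes in brackets, the median as a black bar and the median of all tested genes as a dashed line; vertical scatter within a row carries no meaning. The medians lie between -0.44 and -0.33 for all lists but that of E2F and pocket proteins, at -0.13.

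Some other values also differed between the 2 groups, which differ in genotype and age. Of 10 T lineage markers 9 were measured, among them Cd3d, Cd3e and Cd3g in every tumour, and their summed intensity was 15237 to 18369 in the Notch1+/+ and 19039.5 to 25164 in the Notch1f/f tumours. All 8 macrophage markers were measured, 6 were higher in mean, and their sum was 183 to 767 against 1067 to 1707. Of 8 B cell markers 7 were measured, 6 of them higher, with a sum of 83.0 to 94.7 against 135.5 to 320 and Vpreb1 at 8.0 or less in every tumour. Of 6 dendritic cell markers 5 were measured, with sums of 24.7 to 48.6 against 35.0 to 110, and all 7 neutrophil markers, with sums of 208 to 351 against 127 to 210. All 7 fibroblast markers were lower in mean, with sums of 1401 to 2552 against 868 to 1951 that Pdgfrb dominated. The T lineage, macrophage and B cell sums did not overlap between the groups. Dendritic cell, neutrophil, fibroblast, erythroid, thymic epithelial and endothelial sums did. Krt14, Psmb11, Cdh5 and Tek stayed under the filter in every tumour. The 3′ control probe set for 18S ribosomal RNA read 64.8 to 125 against 249.5 to 319, and the 3′ to 5′ ratio of beta-actin 1.36 to 2.23 against 1.35 to 1.64. The part of these cells and of RNA handling in the lower replication values was not tested.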

How the data were processed

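The authors deposited a single table of linear MAS5 intensity, 1 value per probe set and array. MAS5 is named in the submitters' processing notes. Each array had been scaled, since the mean of the middle 96% of its values was 100.0. The table used here holds no present or absent calls. Of 45101 probe sets, 64 were controls, 34945 had 1 gene symbol, 932 had several (1 of these included a gene of the set and was not used) and 9160 had none.

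Values were put on the scale of log2(intensity + 16). Controls and probe sets with a mean under the 40th percentile (4.56, an intensity of 7.60) were left out, leaving 27022. Notch1f/f minus Notch1+/+ was fitted in limma 3.58.1 (R 4.3.3; lmFit, then eBayes with an intensity trend), two-sided, with Benjamini-Hochberg adjustment over all probe sets. Each tumour came from a separate mouse and no batch is labelled. The fit was tested on simulated data. Counts of genes use 1 probe set per gene. The members and lists were chosen with earlier results of these data known. Genes given tumour by tumour are those with an unadjusted p under 0.05, or without overlap at a log2 difference of at least 0.5 in size, and the smallest p of each role. From each related list, up to 4 genes with the smallest p were named. Promoters are shown for the 4 genes with the smallest p among those with an E2F match. Uhrf1, also given tumour by tumour, Mki67 and the genes whose further probe sets are described were picked with their values in view. The 16 alternatives changed the pseudocount, filter, scaling, variance model, arrays or probe set per gene.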

Additional observations from a re-analysis of the deposited data

How the results depend on the processing

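Of the 44 replication genes, 41 kept a negative log2 difference in all 16 alternatives, and none of the 44 passed an adjusted p of 0.05 in limma in any. The other 3 turned sign. Orc4 had 0.23 when probe sets were averaged per gene and -0.15 to 0.13 over the tumours left out. Uhrf1 had -0.22 when they were averaged, -0.020 with array weights and -0.011 to 0.20 over the tumours left out. Dbf4 had -0.31 to 0.15 over the tumours left out. The median log2 difference of the 44 stayed below 0, at -0.60 to -0.34 over the tumours left out. The count lower at an unadjusted p under 0.05 was 16, but 7 to 25 with a tumour left out and 26 with array weights, where 9.80% of all genes were lower. The count without overlap was 21, and 22 to 35 with a tumour left out, where 11.7% to 19.4% of all genes lay fully lower against 9.14% with all tumours. Over all genes, 5 passed an adjusted p of 0.05. This count was 3 with no filter, 9 with median centring, 19 with array weights, 2 in a linear model without moderation, 9 when probe sets were averaged and 2 to 10 with a tumour left out. The cause of these moves was not tested. No paired analysis was possible because the labels give no shared replicate numbers. With 3 arrays in each group, precision is limited by that number.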
